A study of Mus musculus with 31 samples.

Results

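The CD4+ cells of Vav1-Myo1f lymphomas were compared with the whole spleens they were taken with, in the 3 tumor mice of the CD4-Cre set for which both kinds of library were used, VM388, VM58 and VM98. Each CD4+ library was paired with the spleen library of the same mouse number, which gave 6 libraries out of the 31 in the series. All 3 mice are labelled C57B/6, with the status tumor and the genotype CD4-CreVav1Myo1f fl/wt. Their age and any treatment are not given, and the labels do not say how the CD4+ cells were isolated. Cre recombinase in this genotype is driven by Cd4 sequences, which are active in developing thymocytes as well as in mature CD4+ T cells, so other T cells can carry the recombined allele too. The same pair of tissues from 3 control mice of the same strain, VM211, VM216 and VM645, genotype CD4-Cre(WT), served as the measure of what separates CD4+ cells from a spleen without lymphoma. A further tumor CD4+ library, which carries the number VM645 like one of the control mice, had no spleen partner and was used only where all 13 libraries of the set entered 1 fit. The tumor pairs VM231 and VM236 of the genotype CD4-CreERT2Vav1Myo1f fl/wt were read beside the results for direction only.

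Vav1 passes the signal of the T cell receptor on to the small GTPase Rac, and Myo1f is a myosin of leukocytes. Fusions that join Vav1 to Myo1f occur in peripheral T cell lymphomas, some of which resemble T helper 2 cells, the helper cells that depend on the transcription factor Gata3 and secrete interleukins 4, 5 and 13. A spleen holds B cells, plasma cells, red pulp macrophages, dendritic cells and granulocytes beside T cells. The comparison asked which genes belong to the CD4+ cells of such a spleen and which to the cells around them.

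Gene counts per library ran from 24480017 to 36985628 in the 6 libraries. Copies made by amplification were not told apart from separate RNA molecules. The CD4+ library of VM98 stood apart from the other 5. It had counts for 34546 genes against 22131 to 23045, and 23.7% of its entries matched no gene against 9.22% to 17.8%. Immunoglobulin genes took 14.6% of its counts, while they took 0.664% and 0.619% in the CD4+ libraries of VM388 and VM58. This share was not particular to the library, since it was 14.1% in the spleen of VM98. Ddx3y, a Y-linked gene, was read at 3.08 CPM in the CD4+ library of VM98 and at 0.102 CPM in the spleen of the same mouse. Xist, an X-linked gene, stood at 305 and 314 CPM in the same libraries. The part of any of these features in the results was not tested. Values are given for each mouse, in the order VM388, VM58 and VM98, so that the first 2 can be read without it. Levels are TMM-scaled CPM, that is, counts relative to the size of the library, and differences are log2 values of CD4+ cells against spleen, positive where the CD4+ cells were higher.

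The CD4+ libraries carried the T cell program in all 3 mice. Cd4, the co-receptor used to define these cells, was read at 671, 664 and 665 CPM in CD4+ cells and at 85.5, 215 and 65.3 CPM in the spleens. The CD4+ libraries lay close together, and each was above all 3 spleens. All 20 genes of a list of T cell identity and receptor signalling were higher in every CD4+ library than in every spleen, with a median log2 difference of 2.29 over the list and 0.02 over all 17167 genes tested. Cd3e, a chain of the CD3 complex, was 6.96-fold, 2.78-fold and 5.61-fold higher in CD4+ cells, and Trac, the constant segment of the receptor alpha chain, was 8.39-fold, 2.84-fold and 6.96-fold higher. Cd8a, which marks the other main T cell lineage, was lower in the CD4+ cells, at 2.61, 2.65 and 6.54 CPM against 20.5, 24.4 and 57.3 CPM. Cd4, the CD3 genes and Cd8a thus bore out the label as an enrichment for CD4+ T cells, but they do not measure purity. The same CD4+ libraries held red pulp macrophage genes at a summed level of 77.6%, 141% and 66.7% of that in the spleen. B cell genes stood at 11.4%, 10.7% and 49.6% of the spleen level.

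The spleens differed in how much of the T cell signal they held. Over the 20 T cell genes, the median spleen level was 12.7% of the CD4+ cell level in VM388, 38.3% in VM58 and 17% in VM98. In the control mice VM211, VM216 and VM645 it was 25.3%, 20.5% and 20.9%, so 2 tumor spleens were below and 1 was above all 3 controls. For Cd4 alone the spleen level was 12.7%, 32.4% and 9.82% of that in the CD4+ cells of the tumor mice, and 7.70%, 7.45% and 9.70% in the controls. Cd2, an adhesion receptor that cells other than CD4+ T cells also carry, reached 90.3%, 63.5% and 61.0% in the control mice. The 20 genes lay within a narrower band in the tumor mice, with an SD over genes of 4.72, 4.13 and 8.10 percentage points against 19.0, 14.5 and 13.3 in the controls. In such bulk samples fewer cells of a type and less RNA per cell cannot be told apart. Spleens also hold CD4+ cells, and markers of other cell types were read in the CD4+ libraries. Every difference given here is therefore between a CD4+ library and a mixture that contains CD4+ cells. A level given for CD4+ cells is that of the CD4+ library, and which cells carried it was not tested.

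**Figure D1:**
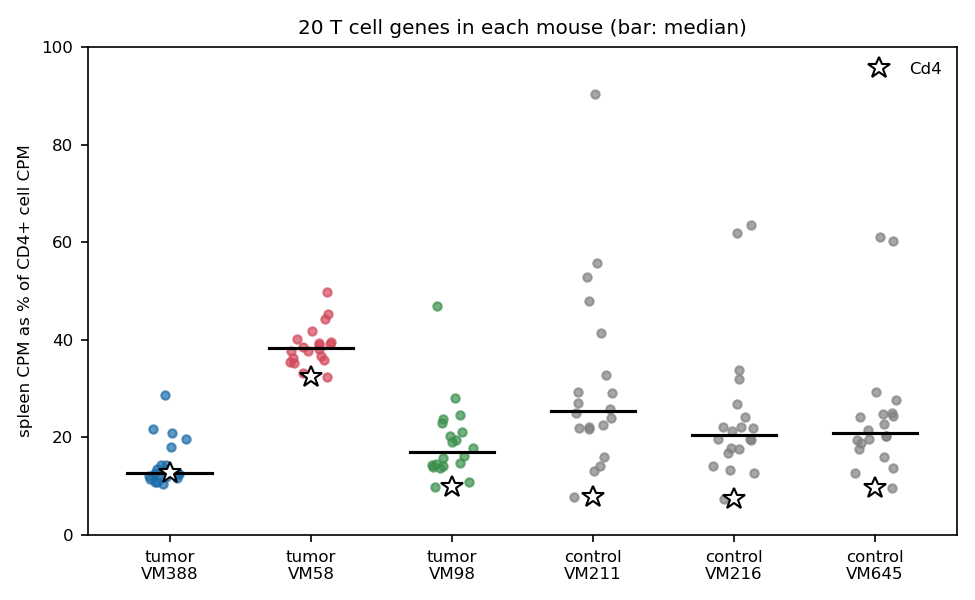
Spleen level as a percentage of the CD4+ cell level for 20 T cell genes, 1 point for each gene, in the 3 tumor and 3 control mice, with Cd4 as a star. VM58 is the mouse with the highest percentages, with a median of 38.3% over the genes, and Cd4 lies at the low end in all 3 control mice.

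Across all genes, few differences passed the test within the 3 pairs. In the edgeR quasi-likelihood fit of the 6 libraries, with the mouse as a block, 0 of 17167 genes were higher in CD4+ cells at an adjusted p under 0.05 (0%) and 11 were lower (0.0641%). At an unadjusted p under 0.05 there were 1515 higher and 1136 lower. DESeq2 on the same pairs called 941 higher and 887 lower, and edgeR without the mouse block called 0 in either direction. These 3 counts used the same 6 libraries and so do not support each other. A count that needs no model gave 1806 genes (10.5%) for which all 3 CD4+ libraries were above all 3 spleens and 1299 (7.57%) for which all were below. With 2 pairs instead of 3, without VM98, these numbers were 3792 and 2907 of the same 17167 genes. Fewer libraries separate more easily by chance, so these counts cannot be compared with those of 3 pairs.

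A fit of all 13 libraries of the set estimated the spread between mice from the control pairs as well. It called 776 of 19503 genes higher in tumor CD4+ cells than in tumor spleen (3.98%) and 621 lower (3.18%). This takes a common spread for tumor and control pairs, which was not tested. The T cell identity list had median differences of 2.98, 1.38 and 2.56 in the tumor mice and 1.98, 2.29 and 2.26 in the controls. For genes whose control pairs vary less, the adjusted p-values of this fit can be too small for the tumor mice. The 13-library calls contained all 11 genes of the 6-library fit, whose libraries the larger fit shares. The number depended on single mice: 104 higher and 226 lower without VM388, 1057 and 1199 without VM58, and 827 and 795 without VM98. The gene groups below are therefore given by their values in each mouse, by the absence of overlap and by their count in the 13-library fit, and no list member other than Mpo passed in the 6-library fit. DESeq2 on the 6 libraries is given beside the counts of the main lists. Over all genes tested, 10.5% were above every spleen and 7.57% below, and 3.98% passed as higher and 3.18% as lower in the 13-library fit. Each list count is to be read beside these shares.

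**Figure D2:**
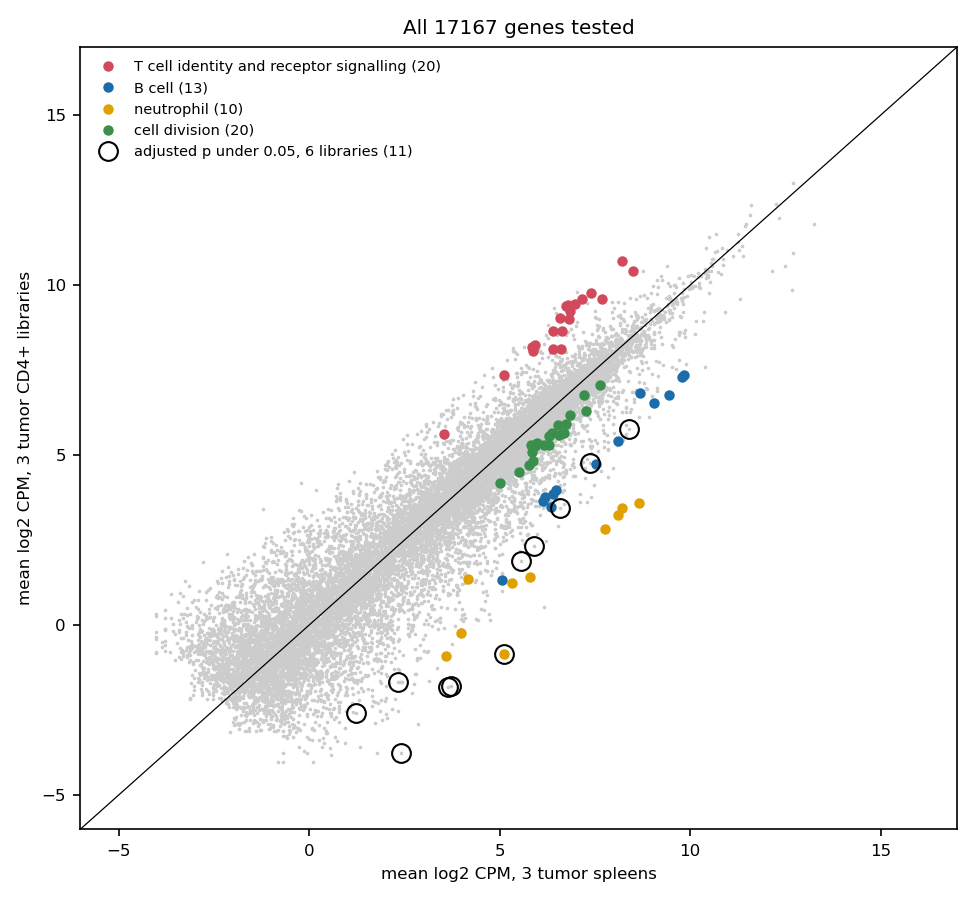
Mean log2 CPM of each gene in the 3 tumor spleens (horizontal) and in the CD4+ cells of the same mice (vertical), with genes of the lists in colour and the 11 genes that passed in the 6-library fit circled. All 11 lie below the diagonal, that is, they were lower in CD4+ cells.

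The 11 genes that were lower in CD4+ cells include several known from immature granulocytes and from B cells. Mpo encodes the peroxidase and Prtn3 a protease of the azurophil granules of neutrophil precursors, Prss57 is a further granule protease, Fcnb is a secreted ficolin of myeloid cells, and Alox5 is the lipoxygenase that starts leukotriene synthesis. For Mpo the 3 CD4+ libraries held 0, 1 and 712 counts and the spleens 41, 336 and 89749. Prtn3 had 0, 1 and 98 counts in CD4+ cells and 21, 160 and 19625 in the spleens. Nearly all counts of both genes came from VM98, where the spleen was 102-fold higher for Mpo and 162-fold higher for Prtn3. Alox5 was covered by 1, 1 and 65 counts in CD4+ cells and by 101, 93 and 6241 in the spleens. Prss57 had 0, 0 and 1 counts against 50, 40 and 2248, and no fold is given for it. The adjusted p-values (edgeR) were 0.0258 for Mpo and Prss57 and 0.0242 for Prtn3 and Alox5.

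Of the same 11 genes, 3 had a mean log2 CPM of at least 4 and no overlap between the tissues. Pkib, an inhibitor of protein kinase A, was read at 13.2, 27.9 and 3.38 CPM in CD4+ cells and at 123, 218 and 32.1 CPM in the spleens, 7.79-fold to 9.51-fold lower in the CD4+ cells (log2 difference -3.14, SE 0.23, edgeR adjusted p = 0.0305). Wdfy4, which dendritic cells need to present antigen of engulfed cells and which B cells express too, stood at 29.9, 36.8 and 18.3 CPM against 185, 202 and 118 CPM (log2 difference -2.59, SE 0.21, edgeR adjusted p = 0.0455). Napsa, an aspartic protease, stood at 66.2, 39.7 and 60.4 CPM against 374, 270 and 383 CPM (log2 difference -2.64, SE 0.22, edgeR adjusted p = 0.0455). The 3 mice gave nearly the same ratio for each of these genes, a trait that the paired test itself selects for. The control mice gave smaller ratios for Pkib, with the spleen 2.20-fold to 3.10-fold higher, and for Wdfy4, with 1.20-fold to 2.28-fold. The genes were chosen on the tumor ratios and not on the control ratios, so this is not an even comparison. The control ratios of Napsa are not given here. The other genes of the 11 were Fcnb, Olfml2b and the immunoglobulin segments Igkv2-109 and Igkv6-32, whose short sequences resemble other segments and whose counts are therefore uncertain. All 11 lost the call without the block and without VM388 or VM58, and of the 9 still tested without VM98 none passed.

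The promoters of genes called in the 6-library fit were searched for a short sequence. PU.1, a transcription factor of myeloid and B cells, and its relative Spi-C bind purine-rich sites with the core GAGGAA. The letters GAGGAA, on either strand, were searched in the 250 bases before the RefSeq start of each gene (GRCm38.p6). They were found for 3 of the 7 genes called in the 6-library fit that had an entry (42.9%), against 23.1% of all 27025 promoters of that length. The letters were also searched for the 3 red pulp macrophage genes that passed in the 13-library fit, of which 2 had an entry and 2 held them. With only 7 and 2 promoters the shares cannot be told apart, and they were not tested. The 3 promoters from the 6-library fit are Prtn3 (chr10:79879417-79879666, plus strand), Mpo (chr11:87793534-87793783, plus strand) and Alox5 (chr6:116461179-116461428, minus strand). They are written 5′ to 3′ toward the gene with the searched letters in capitals.
Prtn3: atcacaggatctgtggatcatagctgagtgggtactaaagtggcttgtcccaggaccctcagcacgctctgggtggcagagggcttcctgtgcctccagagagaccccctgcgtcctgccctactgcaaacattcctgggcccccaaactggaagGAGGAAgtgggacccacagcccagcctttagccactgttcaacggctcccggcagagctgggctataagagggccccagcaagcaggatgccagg
Mpo: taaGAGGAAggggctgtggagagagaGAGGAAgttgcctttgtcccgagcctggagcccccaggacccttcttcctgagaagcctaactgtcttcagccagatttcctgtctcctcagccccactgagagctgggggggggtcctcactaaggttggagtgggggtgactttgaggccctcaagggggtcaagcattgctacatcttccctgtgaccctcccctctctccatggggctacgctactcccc
Alox5: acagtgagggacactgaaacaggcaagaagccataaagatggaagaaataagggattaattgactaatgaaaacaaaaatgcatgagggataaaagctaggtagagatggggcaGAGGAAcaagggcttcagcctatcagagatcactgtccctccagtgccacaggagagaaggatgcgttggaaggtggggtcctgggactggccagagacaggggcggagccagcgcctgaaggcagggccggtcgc
Such a match describes the letters and is no measurement of binding.

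The T helper 2 genes followed the CD4+ cells. Of 12 tested genes of this list, 8 were higher in every CD4+ library than in every spleen and 0 were lower, 9 passed as higher in the 13-library fit and 9 with DESeq2, and the median log2 difference was 3.27, 1.64 and 2.87 in the 3 mice. Gata3, the factor that sets the T helper 2 program, was read at 332, 136 and 237 CPM in CD4+ cells and at 31.8, 43.7 and 34.5 CPM in the spleens (log2 difference 2.61, SE 0.39, edgeR adjusted p = 0.0899 in the 6-library fit and 0.00606 in the 13-library fit). The 2 groups did not overlap. Il4, the cytokine of these cells, stood at 113, 54.8 and 40.1 CPM in CD4+ cells against 9.94, 21.1 and 3.95 CPM in the spleens (log2 difference 2.76, SE 0.51, edgeR adjusted p = 0.0975 and 0.0226). The spleen of VM58 had the highest Il4 level and the smallest ratio, 2.60-fold, while VM388 and VM98 gave 11.4-fold and 10.2-fold.

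The receptors of the T helper 2 list showed the same pattern with different levels between tumors. Ccr8, a chemokine receptor, was read at 140, 225 and 31.8 CPM in CD4+ cells and at 11.4, 60.6 and 3.65 CPM in the spleens, so the VM98 CD4+ cells were below the VM58 spleen. Il1rl1, the receptor of interleukin 33, stood at 117, 14.6 and 57.1 CPM against 14.1, 4.63 and 8.79 CPM. Ccr4, a chemokine receptor of T helper 2 and skin-homing cells, was read at 53.5, 26.9 and 84.6 CPM against 5.94, 6.80 and 8.90 CPM. Each of the 3 receptors was higher in the CD4+ cells of all 3 mice and passed in the 13-library fit, with an edgeR adjusted p of 0.00632. The effector cytokines were scarce: Il13 was read at 3.10, 1.29 and 0.675 CPM in CD4+ cells, and Il5 at 8.49, 0.661 and 2.95 CPM, below the 0.864 CPM of the spleen in VM58.

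Gata3 binds sites with the core GATAA, and these letters, on either strand, were searched in the same window. Of the 9 T helper 2 genes that passed in the 13-library fit, 7 had an entry and 2 held the letters (28.6%), against 23.0% of all promoters. The share was thus near that of all genes. The 2 that held them are shown: Il1rl1 (chr1:40429320-40429569, plus strand) with the letters in 2 places and Ccr8 (chr9:120091883-120092132, plus strand) with the reverse complement TTATC, in capitals, 5′ to 3′.
Il1rl1: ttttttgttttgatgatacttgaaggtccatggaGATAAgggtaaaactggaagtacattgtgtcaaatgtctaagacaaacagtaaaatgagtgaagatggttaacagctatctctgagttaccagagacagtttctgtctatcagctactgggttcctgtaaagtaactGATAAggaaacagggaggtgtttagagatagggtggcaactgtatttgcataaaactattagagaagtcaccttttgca
Ccr8: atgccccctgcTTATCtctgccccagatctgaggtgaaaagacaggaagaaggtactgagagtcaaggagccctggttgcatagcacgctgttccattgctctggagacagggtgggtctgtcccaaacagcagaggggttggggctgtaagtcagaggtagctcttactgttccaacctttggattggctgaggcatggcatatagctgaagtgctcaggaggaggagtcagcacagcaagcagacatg

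Most activation and costimulation genes were higher in the CD4+ libraries as well, 15 in all 3 mice and 3 with mixed signs. Of 18 genes of this list, 8 were above every spleen and 11 passed as higher in the 13-library fit, as did 11 with DESeq2. Both fits called 0 lower. Icos, a costimulator of helper T cells, was read at 1167, 807 and 342 CPM in CD4+ cells and at 136, 283 and 36.3 CPM in the spleens. Tnfrsf4, which encodes OX40, stood at 1053, 1154 and 578 CPM against 114, 392 and 49.9 CPM. Maf, a transcription factor of Il4 and Il21, stood at 333, 286 and 204 CPM against 30.5, 99.3 and 22.8 CPM. For all 3 genes the lowest CD4+ library was above the highest spleen, and VM58 had the highest spleen level each time.

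Of 9 inhibitory receptors of T cells, 8 were higher in the CD4+ cells of all 3 mice, as were 3827 of all 17167 genes tested. Pdcd1, which encodes PD-1, was read at 826, 1017 and 238 CPM in CD4+ cells and at 89.6, 359 and 22.3 CPM in the spleens, so that the groups overlapped although each mouse gave a higher CD4+ level (9.22-fold, 2.84-fold and 10.7-fold). Ctla4 stood at 699, 419 and 176 CPM against 94.5, 140 and 31.4 CPM, without overlap. Havcr2, which encodes TIM-3 and is also found on myeloid cells, was the exception, lower in the CD4+ cells of VM388 and VM98, with 24.1, 67.7 and 14.4 CPM in CD4+ cells and 28.8, 63.9 and 37.3 CPM in spleen. In this list 1 gene was free of overlap, which is near the 10.5% of all genes. As higher, 5 passed in the 13-library fit, against 3.98% of all genes, and 6 with DESeq2.

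The regulatory T cell list, with 8 genes, had 5 above every spleen, 6 that passed as higher in the 13-library fit and 7 with DESeq2. Foxp3, the factor that defines regulatory T cells, was read at 282, 404 and 196 CPM in CD4+ cells and at 31.7, 132 and 16.5 CPM in the spleens. Il2ra, the high-affinity chain of the interleukin 2 receptor, stood at 142, 74.2 and 32.8 CPM against 15.5, 28.8 and 5.15 CPM. Foxp3 was higher in all 3 mice, by 8.92-fold, 3.05-fold and 11.9-fold, which is near the ratio of Cd4 in the same mice (7.85-fold, 3.08-fold and 10.2-fold). The share of regulatory T cells among the CD4+ cells was not measured.

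Other helper cell states were less uniform. Among 8 T follicular helper genes, 5 passed as higher and 1 as lower in the 13-library fit. Il21, the cytokine of these cells, was read at 57.0, 98.5 and 7.22 CPM in CD4+ cells and at 5.94, 26.5 and 1.30 CPM in the spleens, while Bcl6, their transcription factor and a factor of germinal centre B cells, stood at 74.0, 80.8 and 19.8 CPM against 81.5, 69.6 and 32.7 CPM. Il21 was thus higher within each mouse and Bcl6 was not. Of 13 T helper 1 and cytotoxic genes, 3 passed as higher in the 13-library fit. Gzmb, a cytotoxic granule protease, stood at 1165, 341 and 152 CPM in CD4+ cells against 157, 157 and 56.2 CPM, and it was high above all in VM388. Tbx21, the T helper 1 factor, was read at 14.1, 56.3 and 54.0 CPM in CD4+ cells and at 16, 33.5 and 44.3 CPM in the spleens, with overlap.

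Genes of naive and resting T cells split. Lef1, a factor of naive T cells, was read at 128, 133 and 95.6 CPM in CD4+ cells and at 28.7, 46.1 and 29.8 CPM in the spleens, without overlap. Ccr7, a homing receptor of naive T cells and B cells, was lower in the CD4+ cells of VM388 and VM58 (22.7 and 16.6 CPM against 52.7 and 58.1 CPM) and higher in VM98 (79.2 against 49.2 CPM). In the 13-library fit 3 of the 12 genes passed as higher and 1 as lower, against 3.98% and 3.18% of all genes.

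**Figure D3:**
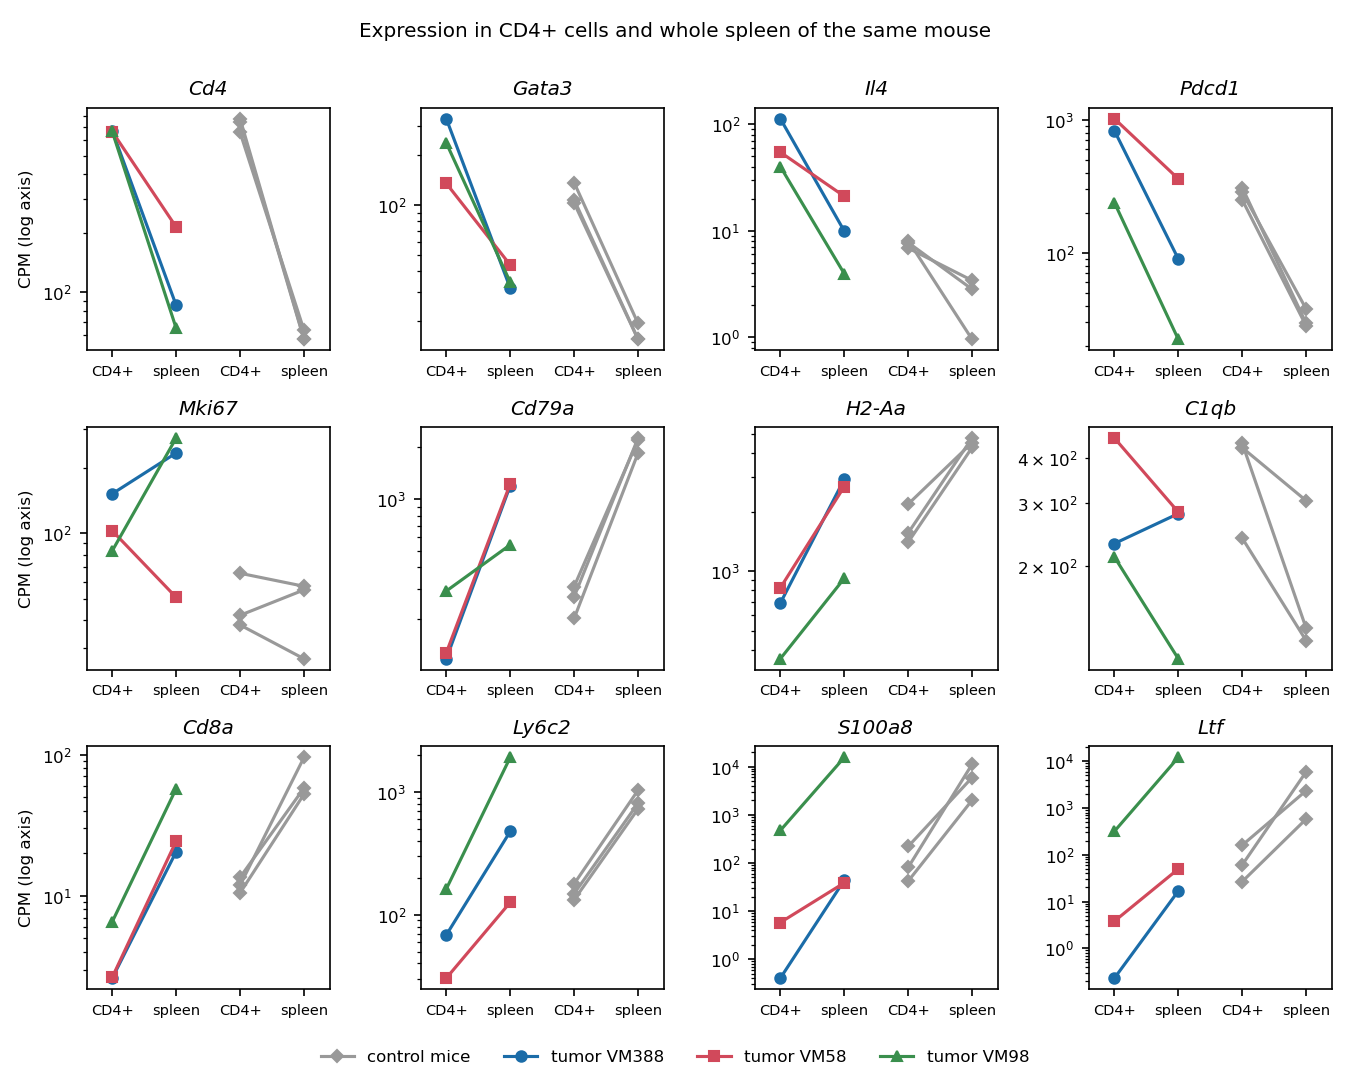
CPM on a log axis of 12 genes in CD4+ cells and spleen, with a line for each mouse, tumor mice in colour and control mice in grey. Cd4, Gata3 and Il4 are higher in CD4+ cells than in spleen in all 3 tumor mice, Cd79a, H2-Aa, Cd8a and Ly6c2 are lower in all 3, and the lines of Mki67 and C1qb run in both directions.

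Both parts of the fusion gene were read in CD4+ cells and spleen alike. Vav1 stood at 247, 302 and 271 CPM in CD4+ cells and at 306, 354 and 383 CPM in the spleens, each mouse slightly lower in CD4+ cells (log2 difference -0.34, SE 0.21, edgeR adjusted p = 0.527). Myo1f stood at 228, 428 and 443 CPM against 220, 358 and 796 CPM (log2 difference -0.17, SE 0.29, edgeR adjusted p = 0.848), and without VM98 its difference had the other sign, at 0.11. Counts per gene do not separate fusion transcripts from those of the normal alleles, and myeloid and B cells express Vav1, so these values do not check the labels of the allele. Vav2, a relative of Vav1, was 2.08-fold to 2.15-fold higher in the spleen of each mouse and passed as lower in CD4+ cells in the 13-library fit, with an edgeR adjusted p of 0.00901.

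Cell division was not tied to the CD4+ cells. Mki67, a marker of dividing cells, was read at 152, 103 and 83.2 CPM in CD4+ cells and at 233, 51.0 and 273 CPM in the spleens. The spleen was higher in VM388 and VM98 and lower in VM58 (log2 difference -0.45, SE 0.53, edgeR adjusted p = 0.764, and 0.15 without VM98). All 20 genes of the cell division list had opposite signs in different mice, with medians of -0.86, 0.79 and -2.23 in VM388, VM58 and VM98, and so did all 15 genes of DNA replication, with medians of -0.89, 0.58 and -1.47. With edgeR 0 of them passed in the 6-library or the 13-library fit, 0 had an unadjusted p under 0.05 in the former, and DESeq2 called 0. The control mice VM211, VM216 and VM645 had medians of 0.47, -0.05 and -0.93 for cell division. Glycolysis genes stood at a median of 0.15, 0.45 and -0.76. In the 13-library fit 1 of 14 passed as higher, against 3.98% of all genes. Ldha, the lactate dehydrogenase of this pathway, differed by at most 1.26-fold in either direction.

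B cell genes lay with the surrounding spleen. All 13 genes of the B cell list passed as lower in CD4+ cells in the 13-library fit and with DESeq2, and 12 were below every spleen library. Ms4a1, which encodes the B cell surface protein CD20, was read at 114, 65.1 and 173 CPM in CD4+ cells and at 1285, 805 and 329 CPM in the spleens. Cd79a, a signalling chain of the B cell receptor, stood at 118, 128 and 292 CPM against 1190, 1219 and 541 CPM. VM388 and VM58 were alike and VM98 was not: the summed level of the list in CD4+ cells was 11.4%, 10.7% and 49.6% of that in the spleen. In VM98 both ends moved, since its spleen had the lowest levels of both genes and its CD4+ library the highest.

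Plasma cell genes were lower in the CD4+ cells of VM388 above all. Jchain, which joins secreted antibodies into polymers, was read at 563, 124 and 6571 CPM in CD4+ cells and at 5914, 262 and 10549 CPM in the spleens. The summed plasma cell level in the CD4+ cells was 13.3%, 70.0% and 62.4% of the spleen level. Of the 7 genes, 2 passed as lower and 1 as higher in the 13-library fit. All 7 genes of MHC class II, which B cells and other antigen-presenting cells use to show peptides to CD4+ T cells, passed as lower in that fit and with DESeq2. H2-Aa stood at 689, 824 and 359 CPM in CD4+ cells against 2939, 2696 and 921 CPM in the spleens, and Ciita, the activator of these genes, at 77.5, 126 and 47.1 CPM against 581, 774 and 89.3 CPM. The CD4+ libraries thus still held H2-Aa at 23.4%, 30.6% and 39.0% of the spleen level.

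Macrophage genes did not separate the tissues in a single direction. C1qb, a complement component made by tissue macrophages, was read at 230, 455 and 211.4 CPM in CD4+ cells and at 280, 282 and 110 CPM in the spleens, higher in the CD4+ cells of VM58 and VM98. Csf1r, the receptor that macrophages depend on, was lower in each mouse, at 207, 543 and 206 CPM against 438, 634 and 529 CPM. The summed level of 15 red pulp macrophage genes in CD4+ cells was 77.6%, 141% and 66.7% of that in the spleen of the tumor mice, and 188%, 138% and 346% in the control mice VM211, VM216 and VM645. In the 13-library fit Axl, a receptor for dying cells, passed as higher, and Adgre1, which encodes F4/80, and Treml4 passed as lower. Axl stood at 120, 167 and 50.7 CPM against 39.6, 86.1 and 25.3 CPM, and Adgre1 at 17.5, 22.4 and 38.2 CPM against 49.9, 43.7 and 155 CPM.

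Other macrophage genes differed between the tumors. Ccl8, a chemokine that binds Ccr8, was read at 363 and 915 CPM in the CD4+ cells of VM388 and VM58 and at 250 and 489 CPM in their spleens, but at 0.211 and 0.204 CPM in VM98. Marco, a scavenger receptor of marginal zone macrophages, followed the same division, with 116 and 208 CPM in CD4+ cells and 212 and 136 CPM in spleen, against 1.18 and 3.34 CPM in VM98. Slc40a1, the iron exporter of red pulp macrophages, stood at 6.05, 16.7 and 29.0 CPM in CD4+ cells and 11, 12.7 and 176 CPM in the tumor spleens. In control mice the same gene was read at 548 to 1133 CPM in CD4+ cells and 262 to 555 CPM in spleen. Both tissues of a mouse were thus high or low together for Ccl8 and Marco. Ly6c2, a marker of inflammatory monocytes, was 7.01-fold, 4.16-fold and 11.9-fold lower in the CD4+ cells and passed in the 13-library fit (edgeR adjusted p = 0.00360).

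Neutrophil genes had the lowest median of the 30 lists, -4.73, and their levels spread widely between mice. All 10 passed as lower in the 13-library fit, 9 with DESeq2, and 1, Mpo, in the 6-library fit with edgeR, and the median was -5.47, -3.15 and -5.15 in the 3 mice. S100a8, an abundant cytosolic protein of neutrophils, was read at 43.7, 38.6 and 15669 CPM in the spleens and at 0.402, 5.78 and 474 CPM in the CD4+ cells. Ngp, a granule protein, stood at 41.1, 68.3 and 23512 CPM against 0.488, 5.75 and 559 CPM. The VM98 CD4+ library was above the spleens of the other 2 mice for both, so the groups overlapped although each mouse was lower in its CD4+ cells. The list summed to 182, 235 and 75148 CPM in the 3 spleens, and the CD4+ level was 1.55%, 13% and 2.71% of it.

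**Figure D4:**
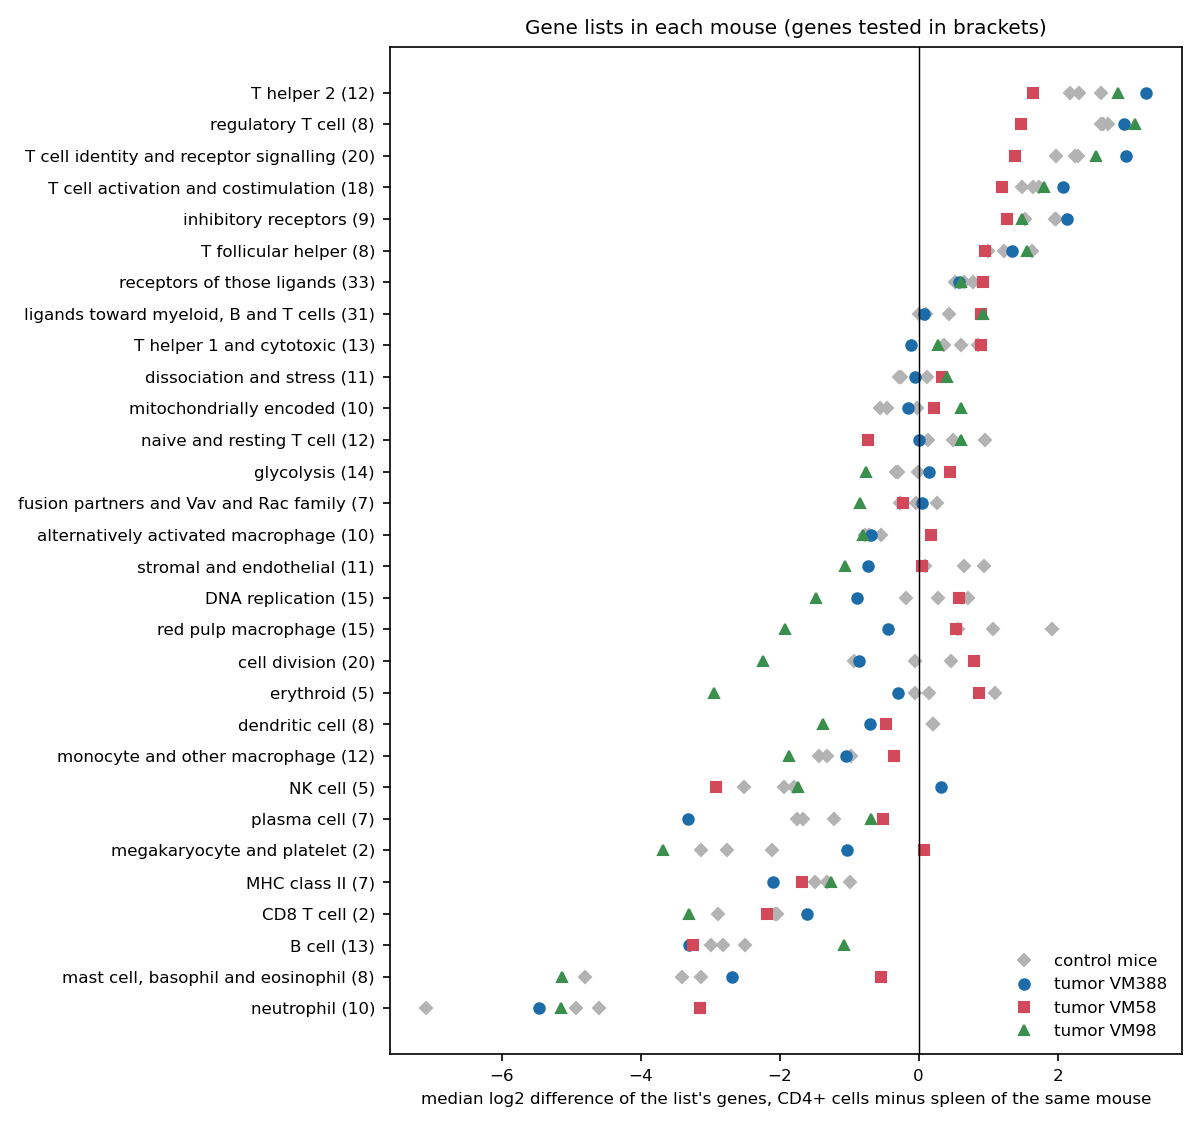
Median log2 difference between CD4+ cells and spleen of each gene list, 1 point for each mouse, tumor mice in colour and control mice in grey. The lists of T cell identity, T helper 2, activation, inhibitory receptor, regulatory and follicular helper genes lie to the right of 0 in all 3 tumor mice. In the same mice B cell, MHC class II and neutrophil lists lie to the left, and cell division and red pulp macrophage lists on both sides.

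Ligands and receptors were read for 36 pairs through which CD4+ T cells and the cells around them can signal. Of 31 ligands tested, 7 were higher in every CD4+ library than in every spleen and 2 were lower, and of 33 receptors 9 were higher and 3 lower. Among all genes these shares were 10.5% and 7.57%, so the counts of lower members lay near the background, and the pairs are given as values only. No ligand or receptor passed in the 6-library fit. Il13 with Il13ra1 was the 1 pair with the ligand above and the receptor below, the receptor at 15.1, 36.1 and 33.4 CPM in CD4+ cells and 43.9, 44.0 and 108 CPM in the spleens. Cd86 with Ctla4 and Cd80 with Cd28 were the 2 pairs with the ligand below and the receptor above. Cd86, a costimulatory ligand of antigen-presenting cells, was read at 41.1, 75.4 and 25.1 CPM in CD4+ cells and at 235, 166 and 78.8 CPM in the spleens. Cd28, the costimulatory receptor of T cells, stood at 287, 217 and 348 CPM against 82.6, 86.9 and 82.5 CPM.

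Further ligands were higher in the CD4+ cells while their receptors overlapped between the tissues. Csf1, the growth factor of macrophages and ligand of Csf1r, was read at 140, 50.5 and 59.6 CPM in CD4+ cells and at 14.2, 27.9 and 16.4 CPM in the spleens. Tnfsf11, which encodes RANKL, stood at 66.7, 46.3 and 52.8 CPM against 6.52, 17.4 and 6.07 CPM. Cd40lg, the helper T cell signal to B cells and dendritic cells, stood at 103, 96.4 and 127 CPM against 12.8, 32.1 and 10.8 CPM. Its receptor Cd40 was lower in the CD4+ cells of each mouse, at 20.1, 39.5 and 9.33 CPM against 135, 124 and 21.9 CPM, with overlap between mice. Each of these 4 genes passed in the 13-library fit.

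Among all genes, list members included, those with the largest differences in the 13-library fit, at a mean log2 CPM of at least 4 and without overlap, included T cell genes, muscle protein genes and genes of other blood cells. The 12 highest were Ikzf4, Ncmap, Izumo1r, Cpne7, Ccr4, Neb, Foxp3, Tnfrsf4, Ttn, Trat1, Nebl and Il4. Izumo1r, which encodes the folate receptor 4 of T cells, was read at 813, 703 and 472 CPM in CD4+ cells and at 74.3, 230 and 36.1 CPM in the spleens. Ttn and Neb, known for the giant proteins of muscle, stood at 371, 191 and 92.7 CPM and at 267, 148 and 71.7 CPM in CD4+ cells, against 31.9, 73.7 and 8.96 CPM and 26.7, 39.8 and 8.04 CPM in the spleens. Both were higher within each mouse and passed with an edgeR adjusted p of 0.00915 and 0.00566.

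The 12 lowest were Prss34, Gcsam, Cr2, Hp, Lifr, Cd24a, Tspan2, Serpinb1a, Lrrk2, Cnn3, Pkib and Ceacam1. Cr2, the complement receptor of follicular and marginal zone B cells, was read at 0.861, 3.74 and 4.39 CPM in CD4+ cells and at 9.83, 100.5 and 38 CPM in the spleens. Lifr, the receptor of leukemia inhibitory factor, stood at 24.6, 33.5 and 2.19 CPM against 197, 266 and 51.2 CPM. Lrrk2, a kinase of B cells and myeloid cells, stood at 12.9, 18.8 and 12.4 CPM against 119, 279 and 77.2 CPM. Prss34, a basophil protease, came from 1 spleen, VM98, with 1077 CPM against 2.59 and 0.120 CPM in the others.

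The same contrast in control mice was used to ask which of these differences belong to tumors. The interaction between tissue and status, tested with edgeR over 12 libraries with the mouse as a block, called 0 of 19333 genes (0%), with 832 higher and 937 lower at an unadjusted p under 0.05 and a smallest adjusted p of 0.0608. DESeq2 called 98 higher and 156 lower among 17458 genes with an adjusted p, and edgeR without VM98 called 34 and 32. The T cell identity list had a median difference of 2.98, 1.38 and 2.56 in tumor mice and 1.98, 2.29 and 2.26 in control mice, and the B cell list -3.31, -3.25 and -1.08 against -2.51, -2.98 and -2.81. Both lists therefore separated CD4+ cells from spleen in mice with and without lymphoma. Other T cell lists were higher in control CD4+ cells too. In VM211, VM216 and VM645 the T helper 2 list lay at 2.18, 2.30 and 2.63 and the activation list at 1.73, 1.49 and 1.64. Inhibitory receptors lay at 1.96, 1.98 and 1.53, and the regulatory T cell list at 2.73, 2.62 and 2.65. Gata3 was 7.05-fold, 6.62-fold and 6.91-fold higher in control CD4+ cells than in control spleen, which lies within the 3.10-fold to 10.5-fold of the tumor mice. The red pulp macrophage list lay at -0.44, 0.54 and -1.92 in tumor mice and at 1.07, 0.57 and 1.92 in control mice.

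The tumor pairs of the CD4-CreERT2 model, which entered no fit, gave the direction in other mice. All 11 genes called in the 6-library fit were lower in CD4+ cells in both VM231 and VM236, against 21.3% of the 16435 tested genes with a matching symbol. Of 1745 matched genes that were higher in every CD4+ library than in every spleen of the CD4-Cre tumors, 60.5% were higher in both CreERT2 mice and 3.21% lower, beside 23.9% higher among all genes. Of 1262 matched genes that were below, 54.4% were lower in both and 5.39% higher. The cell division list, mixed in the CD4-Cre tumors, had 0 of 20 genes higher and 15 lower in both CreERT2 mice.

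T cell receptor V genes linked the 2 libraries of VM388. Each T cell clone uses 1 Trbv segment for its receptor beta chain, so a clone that fills a sample raises the share of its segment. Trbv3 took 51.0% of all Trbv counts in the CD4+ cells of VM388 (exact Clopper-Pearson 95% interval 50.3% to 51.8%, 16957 counts) and 46.5% in its spleen (44.2% to 48.9%, 1737 counts). In VM58 the segment most counted in CD4+ cells was Trbv19, with 11.9% (11.4% to 12.6%, 11200 counts) and 10.4% in the spleen (9.58% to 11.3%, 4893 counts). In VM98 it was Trbv13-2, with 15.4% (14.7% to 16.2%, 8451 counts) and 11.5% (9.97% to 13.1%, 1648 counts). The leading segment of control CD4+ cells took 10.5% to 15.2%. VM388 was far above this range, VM58 was within it, and the interval of VM98 overlapped that of the highest control, 14.7% to 15.8%. The alpha chain gave another order. The most counted Trav segment took 6.30%, 5.97% and 14.2% (13.3% to 15.1%) in the CD4+ cells of the 3 tumors and 5.33% to 6.58% in control CD4+ cells, so VM388 lay within the control range and VM98 above it. Intervals cover counting error alone, and counts of neighbouring or similar V segments are uncertain.

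**Figure D5:**
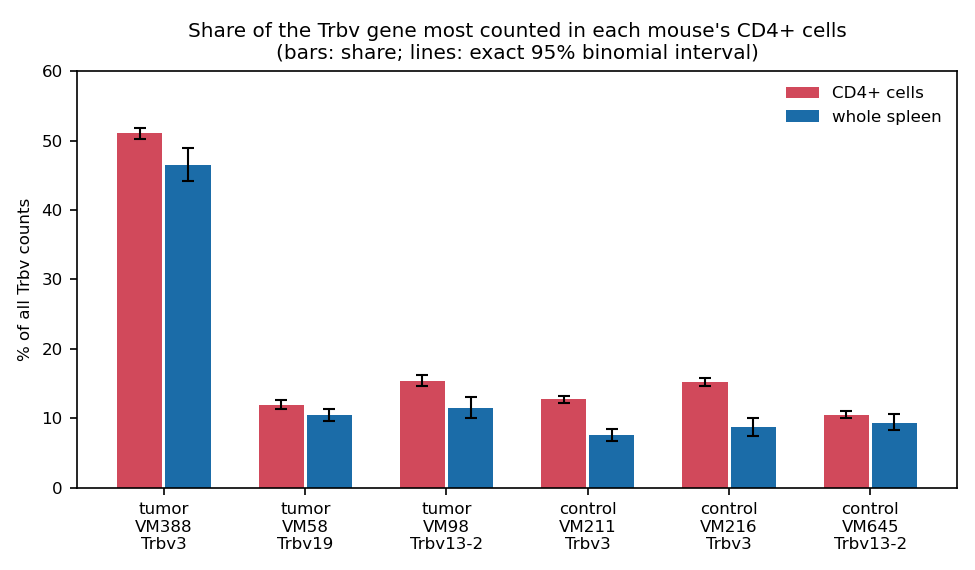
For each mouse, the Trbv segment with the most counts in CD4+ cells, as its percentage of all Trbv counts in CD4+ cells and in spleen, with exact 95% intervals. VM388 stands at 51.0% and 46.5%, and the other tumor mice and the controls at 15.4% or less.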

How the data were processed

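PolyA RNA of CD4+ cells or whole spleen was extracted with the RNeasy Micro kit, amplified with SMART-Seq v4 and sequenced as Nextera XT libraries on a HiSeq, per the labels' protocols. The authors deposited raw read counts per gene symbol. HISAT2 2.1.0, HTSeq 0.5.4 and mm10 are named in the submitters' processing notes. The annotation release and strand setting are not given in the sources used here, so counts of overlapping genes are uncertain. The 5 lines of unassigned reads were left out of library sizes and tests (32.7% to 46.0% of entries in the CD4-Cre set).

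Genes were filtered with filterByExpr, scaled by TMM and tested with the two-sided quasi-likelihood test of edgeR 4.0.16 (R 4.3.3), with Benjamini-Hochberg adjustment over all genes tested, a threshold of 0.05 and the mouse as a block. The tumor library and the control pair that carry the number VM645 were assumed to be different mice. The SE is the log2 difference over the square root of F. Levels are CPM with TMM factors over the 13 libraries of the CD4-Cre set, and list medians per mouse use log2 CPM with a prior count of 2. Numbers pair the samples, since the titles give both libraries of a mouse 1 number. The deviations from group means correlated at 0.304, 0.333 and 0.363 within mice and at -0.26 to 0.00014 between mice. Deviations from a group mean cancel out over its mice, so the values between mice are no separate evidence beside those within. The scripts were tested on simulated data.

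The 30 lists (357 genes), the members and the tests were chosen with earlier results of these data known. The rule named Vav1, Myo1f, Cd4, Gata3 and Mki67; in each list up to 4 members that passed, or else the 2 of highest level; and up to 12 passing genes in each direction with a mean log2 CPM of 4 or more, without overlap and outside gene models, receptor segments, ribosomal and sex-linked genes. Few genes passed, so the rule was also applied to the 13-library fit, and further list members were named after their values were seen. The motif search used members that passed in that fit and the 9 called genes that are not immunoglobulin segments, since no member of the 2 lists chosen for it qualified in the 6-library fit. Alternatives were no block, RLE, TMM without 4 gene classes, no filter, DESeq2 1.42.0, 13 libraries and each mouse left out. Some results are not reported here.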

Additional observations from a re-analysis of the deposited data

Results flagged for a closer look

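A list and 3 of the genes reported here went in opposite directions in all 3 tumor mice and all 3 control mice, the genes with a mean log2 difference of more than 0.5 in each group. The dendritic cell list had medians of -0.69, -0.47 and -1.38 in VM388, VM58 and VM98 and of 0.21, 0.20 and 0.20 in VM211, VM216 and VM645. Its median interaction over genes was -1.38, and as a list it was not tested.

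Itgax, which encodes CD11c of dendritic cells and macrophages, was read at 10.6, 38.9 and 2.83 CPM in tumor CD4+ cells and 20.6, 47.8 and 20.4 CPM in tumor spleen, against 71.5, 133.9 and 45.3 CPM and 45.9, 59.7 and 32.6 CPM in the controls (interaction -2.07, edgeR adjusted p = 0.460). It was thus lower in tumor CD4+ cells than in tumor spleen and higher in control CD4+ cells than in control spleen.

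The other two genes went the other way. Cxcr5, the follicle homing receptor of follicular helper T cells and B cells, was read at 301.5, 334.9 and 59.8 CPM in tumor CD4+ cells and 137.3, 232.9 and 32.1 CPM in tumor spleen, against 106.8, 105.7 and 137.7 CPM and 137.5, 180.0 and 181.9 CPM in the controls (interaction 1.36, edgeR adjusted p = 0.319). Dusp1, a phosphatase of the early response to stimuli, was 3.28-fold, 2.40-fold and 2.28-fold higher in tumor CD4+ cells than in spleen, while control spleens were 1.63-fold, 1.90-fold and 1.62-fold higher than control CD4+ cells (interaction 2.16, edgeR adjusted p = 0.0917). None of these genes passed the interaction test.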

How the results depend on the processing

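The comparison of CD4+ cells with spleen called 0 genes higher and 11 lower. With the same paired libraries and no replicate block it called 0 and 0, with no filter 663 and 888 of 39404, with DESeq2 941 and 887, with all 13 libraries 776 and 621, and without any 1 mouse 0 and 0. RLE scaling gave 0 and 10. The interaction called 0 in either direction, also without the block, 202 higher and 345 lower with no filter, 98 and 156 with DESeq2, and from 0 to 34 higher and 0 to 32 lower without 1 mouse. The 13-library counts ran from 104 to 1057 higher and from 226 to 1199 lower without 1 tumor mouse, an alternative chosen after seeing the data. With 1 mouse left out, Myo1f ran from -0.39 to 0.11 and Mki67 from -1.16 to 0.15. The most counted Trav instead of Trbv segment took 6.30%, 5.97% and 14.2% in CD4+ cells (controls 5.33% to 6.58%). In spleen it took 7.06%, 6.38% and 7.84%, and 10.8%, 10.8% and 5.13% in the control spleens of VM211, VM216 and VM645. In VM58 the segment differed, Trav4-4-dv10 in CD4+ cells and Trav5-4 in spleen. All 11 called genes kept their direction in every alternative that tested them, and no scaling moved the median of all genes by 0.1 or more. The causes of these shifts were not tested.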

Other observations

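Genes known for muscle proteins stood among the highest of the 13-library fit, and were named by the rule rather than by a list. Ttn was 11.6-fold, 2.60-fold and 10.3-fold higher in CD4+ cells than in spleen of VM388, VM58 and VM98, Neb 10.0-fold, 3.72-fold and 8.92-fold, and Nebl 11.5-fold, 3.95-fold and 6.98-fold. In the control mice VM211, VM216 and VM645, Nebl gave 2.29-fold, 0.789-fold and 1.09-fold. The control ratios of Ttn and Neb are not given here. These genes were chosen on the tumor ratios and not on the control ratios, so the comparison is not even. Basophil genes were read in the spleen of VM98 above all, with Fcer1a at 1.98, 0 and 55.5 CPM in the 3 tumor spleens and at 0, 0 and 0.422 CPM in the CD4+ cells.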
